A study of Mus musculus with 42 samples.

Results

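Genes of DNA replication and of mitosis were followed through the differentiation of mouse embryonic stem (ES) cells into embryoid bodies. The members were 41 genes given by name, 19 that act in DNA replication and 22 that act in mitosis. They were matched by symbol to the gene identifiers of the deposited values through the GENCODE annotation of the mouse, and all 41 were present among the 14296 genes measured. The cells were of the W9.5 line, with the strain background 129X1/SvJ, and carried no treatment apart from the induction of spontaneous differentiation by withdrawal of leukaemia inhibitory factor, a cytokine that holds ES cells in the pluripotent state. Stranded libraries of poly-A RNA were made every 6 h from 0 h to 120 h, once in replicate A and once in replicate B, so that each of the 21 time points had 2 libraries and the series 42. All libraries came from this line, and the time point and the replicate were the features in which they differed. The replicates were described as biological duplicates. Every p-value below sets a change against the spread between duplicates of the gene, pooled over the 21 time points and moderated by limma. It does not measure the spread at the compared time points alone.

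A cell that divides first copies its genome and then separates the copies. Origins of replication are licensed when the origin recognition complex (Orc1 is its largest subunit), Cdc6 and Cdt1 load the helicase Mcm2 to Mcm7 onto DNA. Mcm10 and the GINS complex (Gins1, Gins2) turn the loaded helicase into an active one, the polymerase subunit Pola1 starts the new strands, and the clamp Pcna, which the loader subunits Rfc3 and Rfc4 place on DNA, holds the polymerases to them. In mitosis, Cdk1 with its cyclins and the kinases Plk1, Aurka and Aurkb drive the assembly of the spindle, the checkpoint kinases Bub1 and Bub1b watch over the attachment of chromosomes, and Cdc20 and Ube2c serve the anaphase-promoting complex that ends the phase. Mouse ES cells are known for rapid division and for a short gap before replication, which lengthens as they differentiate. In bulk RNA, fewer cells in a phase and less RNA per cell cannot be told apart.

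Genes of replication and genes of mitosis are known to be read from promoters with different elements, E2F sites in the former and the cell cycle homology region (CHR), often with CCAAT boxes, in the latter. The letters were searched on both strands of the window from 250 bases before to 50 bases after the start of each gene in the RefSeq annotation of GRCm38.p6. Of the 41 members, 34 had such a window; Mcm4, Gins1, Gins2, Ccna2, Aurkb, Kif20a and Tpx2 were not matched. E2F letters (TTTGGCGC, TTTGCCGC, TTTCGCGC or TTTCCCGC) were present for 9 of 16 replication genes (Mcm3, Mcm5, Mcm6, Mcm7, Cdc6, Cdt1, Orc1, Rfc3 and Pola1) and for 1 of 18 mitosis genes (Cdk1), beside 2.60% of all 27025 genes with a window. CHR letters (TTTGAA or TTCGAA) were present for 14 of 18 mitosis genes, all but Nusap1, Cenpe, Birc5 and Ccnb1, and for 3 of 16 replication genes (Mcm2, Mcm7 and Rfc3), beside 21.7% of all genes with a window. CCAAT was present for 12 of 16 replication genes and 16 of 18 mitosis genes, beside 41.1% of all genes with a window, and each of the 14 mitosis genes with CHR letters also had CCAAT. Matches of different motifs overlapped in 2 of the 35 windows of the members (Mcm7 had more than 1 window). A match is a description of the letters and not of binding.

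The 160 bases before the start are shown for 3 replication genes with E2F letters and for 5 mitosis genes with CHR letters upstream of the start, as examples of the letters counted in each group. Each is written 5′ to 3′ on the strand of its gene, with the letters of the 3 motifs in capitals on either strand. They lie at chr1:128359706-128359865 (Mcm6, minus strand), chr4:108579294-108579453 (Orc1, plus strand), chrX:93632156-93632315 (Pola1, minus strand), chr4:118437344-118437503 (Cdc20, minus strand), chr10:69352913-69353072 (Cdk1, minus strand), chr19:37376222-37376381 (Kif11, plus strand), chr2:164769769-164769928 (Ube2c, plus strand) and chr11:99024190-99024349 (Top2a, minus strand) of GRCm38.p6. In Mcm6, E2F letters of both strands overlap in 1 longer run of capitals.
Mcm6: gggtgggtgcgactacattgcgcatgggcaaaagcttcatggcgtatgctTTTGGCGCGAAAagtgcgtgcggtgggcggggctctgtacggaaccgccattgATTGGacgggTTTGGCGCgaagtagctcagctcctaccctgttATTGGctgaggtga
Orc1: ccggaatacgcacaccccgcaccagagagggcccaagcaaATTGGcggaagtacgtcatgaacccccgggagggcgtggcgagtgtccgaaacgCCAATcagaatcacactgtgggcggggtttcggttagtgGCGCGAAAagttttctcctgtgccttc
Pola1: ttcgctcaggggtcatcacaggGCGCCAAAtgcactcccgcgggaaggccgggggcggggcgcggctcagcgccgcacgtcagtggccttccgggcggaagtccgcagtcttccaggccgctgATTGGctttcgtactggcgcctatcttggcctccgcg
Cdc20: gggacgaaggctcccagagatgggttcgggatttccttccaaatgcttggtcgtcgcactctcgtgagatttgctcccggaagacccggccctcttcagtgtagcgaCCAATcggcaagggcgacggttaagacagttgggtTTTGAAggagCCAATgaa
Cdk1: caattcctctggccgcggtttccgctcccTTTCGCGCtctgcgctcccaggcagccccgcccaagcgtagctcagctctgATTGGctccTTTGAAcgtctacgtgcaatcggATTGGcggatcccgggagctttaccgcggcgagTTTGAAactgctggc
Kif11: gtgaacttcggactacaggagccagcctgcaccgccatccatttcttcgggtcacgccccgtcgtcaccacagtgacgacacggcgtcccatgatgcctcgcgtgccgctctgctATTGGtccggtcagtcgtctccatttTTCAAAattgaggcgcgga
Ube2c: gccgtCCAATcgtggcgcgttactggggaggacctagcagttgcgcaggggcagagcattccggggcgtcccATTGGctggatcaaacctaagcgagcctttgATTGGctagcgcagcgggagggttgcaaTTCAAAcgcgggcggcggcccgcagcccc
Top2a: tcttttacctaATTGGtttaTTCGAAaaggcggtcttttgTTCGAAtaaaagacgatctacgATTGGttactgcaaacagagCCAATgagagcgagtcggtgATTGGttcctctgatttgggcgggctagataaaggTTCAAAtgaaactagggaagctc
The E2F letters lie in Mcm6, Orc1, Pola1 and Cdk1, and the CHR letters in Cdc20, Cdk1, Kif11, Ube2c and Top2a, where Top2a has several and Cdk1 is the only gene shown with both.

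Between 10120972 and 51652434 reads were counted in a library (median 29692082). Values were log2 CPM, the base 2 logarithm of counts scaled to 1000000 reads of a library size that the authors normalized. The median of all genes moved by less than 0.05 in each comparison on this scale. Scaled by the counted reads alone, the median of all genes moved by a further -0.22 from 0 h to 6 h, 0.15 from 48 h to 72 h, -0.15 from 96 h to 108 h and 0.13 from 108 h to 120 h, so that the direction of small changes in these intervals rests on the normalization. The share of higher calls among all calls fell from 46.5% to 31.5% at 6 h and from 52.0% to 30.5% at 108 h, and rose from 52.6% to 71.0% at 72 h and from 52.4% to 73.6% at 120 h against 108 h. The 10 markers of pluripotent cells, all present, summed to 6262 and 6794 CPM (A and B) at 0 h and to 2770 and 2730 CPM at 120 h, and each of the 10 was lower at 120 h. At 0 h the 5 markers of primitive streak and mesoderm that were measured of 8 listed summed to at most 15.1 CPM, the 6 of 9 of endoderm to 8.05, the 5 of 7 of neuroectoderm to 18.0 and the 7 of 8 of fibroblasts to 28.1, with no reads in either library for 1 endoderm, 1 neuroectoderm and 2 fibroblast markers. Duplicates stood apart most at 96 h, where streak and mesoderm markers summed to 98.7 CPM in replicate A and to 467 CPM in replicate B.

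All members had reads in every library. The fewest reads were 379 for a replication gene (Rfc4) and 727 for a mitosis gene (Aurkb) in any library. Mean levels ran from 5.14 log2 CPM (Gins1) to 9.65 log2 CPM (Top2a, the topoisomerase that untangles chromosomes). Per kilobase of exon, the median level was 4.84 log2 CPM for replication genes and 5.50 log2 CPM for mitosis genes. On this scale Pcna was the highest replication gene at 7.34, and Cdc20 the highest mitosis gene at 6.99. The subunits of the helicase lay close together, from 6.09 (Mcm2) to 6.86 (Mcm3) log2 CPM per kilobase, while the factors that load it were lower, at 3.92 for Cdc6, 4.55 for Orc1 and 5.70 for Cdt1.

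The level of each group was taken as the mean of its members after the mean of each gene over all libraries was subtracted. The replication genes stood at 0.06 (A) and 0.07 (B) log2 CPM at 0 h and at 0.07 and 0.04 at 6 h, climbed to 0.44 and 0.46 at 36 h, passed 0.26 and 0.28 at 48 h and reached -0.36 and -0.40 at 120 h. The mitosis genes stood at 0.15 and 0.07 at 0 h, at 0.27 and 0.24 at 6 h, at 0.14 and 0.16 at 12 h, at 0.31 and 0.25 at 30 h and at -0.26 and -0.31 at 120 h. Both groups were thus above their mean up to 48 h and below it from 72 h on. The SD between duplicates, pooled over the time points, was 0.05 for replication and 0.04 for mitosis. The difference between the groups within a library does not depend on the scaling of that library. Replication minus mitosis was -0.20 in both replicates at 6 h, between 0.07 and 0.29 in each library from 12 h to 48 h, and -0.23 (A) and -0.22 (B) at 90 h. Over the 42 libraries the levels of the groups were correlated with r = 0.932, as a description, since the libraries share the course of time.

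**Figure D1:**
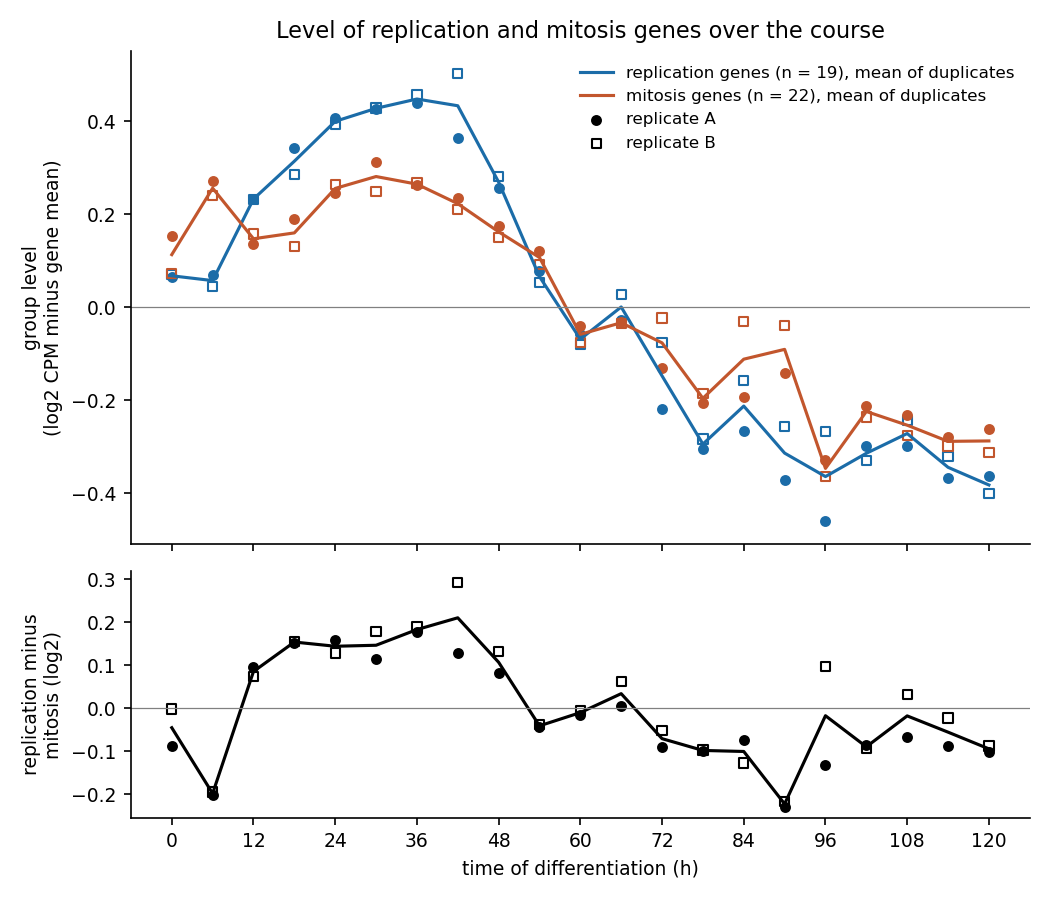
Level of the 19 replication genes and of the 22 mitosis genes (log2 CPM minus the mean of each gene, y axis) against time (h, x axis), with filled circles for replicate A, open squares for replicate B and lines for the mean; the lower panel gives replication minus mitosis. The mitosis genes stand above the replication genes at 6 h by 0.20 in both replicates, the replication genes stand higher from 12 h to 48 h, and both decline after 48 h.

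As a share of the counted reads, the replication genes took 0.530% (A) and 0.524% (B) at 0 h and 0.498% and 0.490% at 6 h. They took 0.597% and 0.590% at 24 h and 0.375% and 0.369% at 120 h. The mitosis genes took 0.594% and 0.548% at 0 h, 0.540% and 0.525% at 6 h and 0.431% and 0.415% at 120 h. This share is set by the genes with most reads, and it has no normalization, so that the mitosis genes at 6 h took a smaller share of the reads than at 0 h although their mean on the normalized scale was higher. The share of the replication genes was smaller at 6 h than at 0 h as well.

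Over the whole course, all 19 replication genes and 21 of 22 mitosis genes changed by the F test of limma (adjusted p under 0.05, Benjamini-Hochberg), beside 94.2% of all genes. The exception was Cenpf, a kinetochore protein (adjusted p = 0.0855). From the lowest to the highest time point, members spanned 0.57 (Rfc3) to 1.62 (Rrm2) on the log2 scale among replication genes, with a median of 1.02, and 0.62 (Cdca8) to 1.5 (Ube2c) among mitosis genes, with a median of 0.93. The median of all genes was 1.5. The SD between duplicates ran from 0.06 (Mcm4, Ccna2) to 0.30 (Rfc4) for members, with a median of 0.18 for all genes.

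The highest mean lay between 24 h and 42 h for 16 of 19 replication genes, the exceptions being Cdt1 at 0 h, Rfc3 at 18 h and Orc1 at 48 h. Among the mitosis genes 4 were highest at 0 h (Ccnb2, Aurkb, Kif23, Nusap1), 9 between 6 h and 18 h (Ccna2, Cdc20, Plk1, Aurka, Kif20a, Tpx2, Birc5, Ube2c, Cdca8), 7 between 24 h and 42 h (Ccnb1, Cdk1, Bub1b, Top2a, Mki67, Kif11, Cenpf), Cenpe at 54 h and Bub1 at 72 h. The lowest mean lay between 96 h and 120 h for 15 of 19 replication genes and 16 of 22 mitosis genes. These positions are a description and were not tested. The duplicates differed in the time of the highest value for several genes. Examples are Nusap1 (0 h in A, 72 h in B), Birc5 (18 h and 42 h), Cenpe (54 h and 84 h) and Rfc4 (90 h and 42 h).

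**Figure D2:**
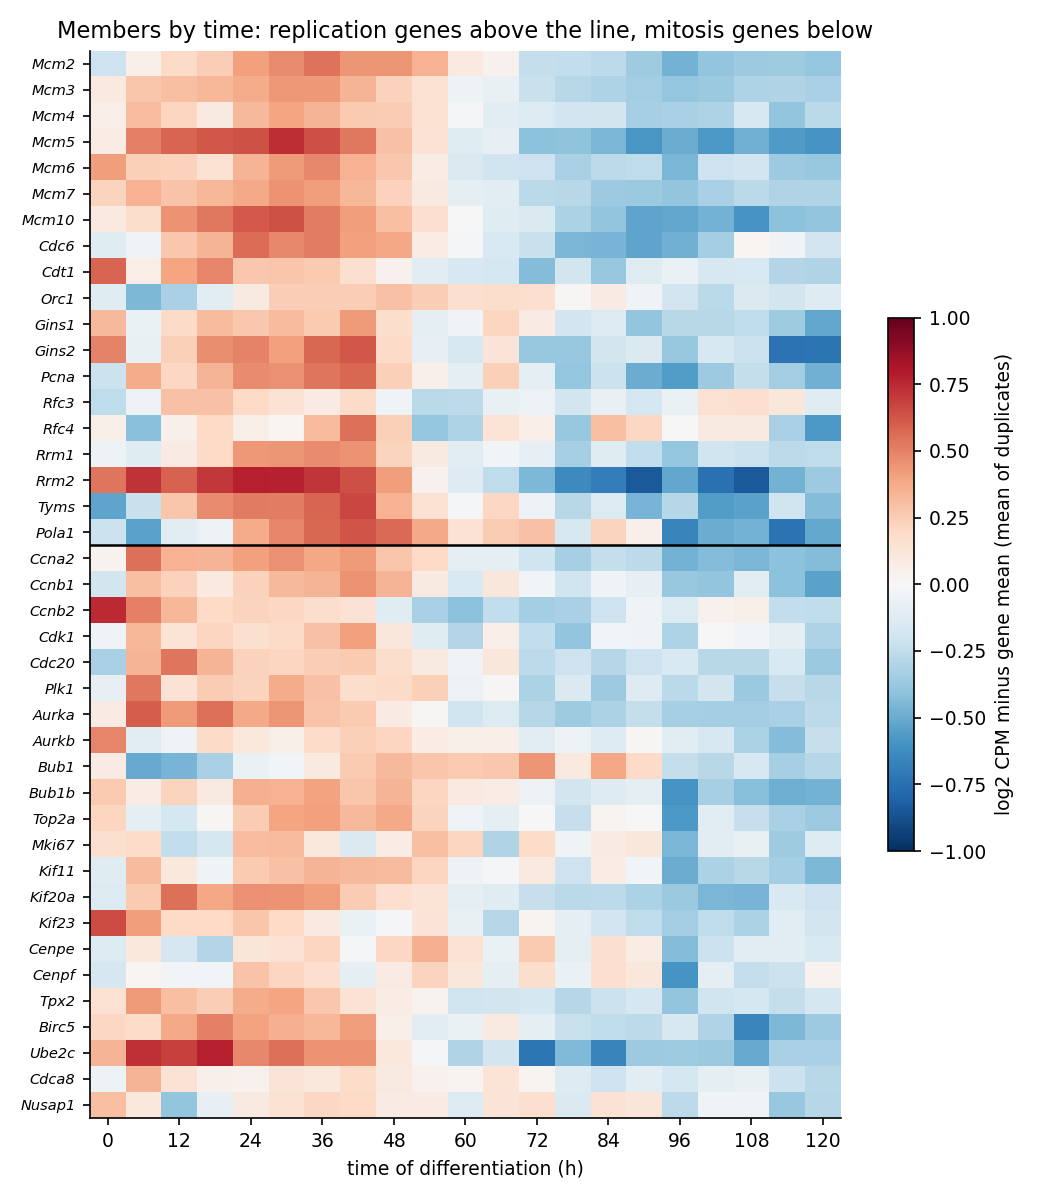
Log2 CPM minus the mean of the gene (colour, mean of duplicates) for each of the 41 members (rows) at each time point (columns, h), with replication genes above the line and mitosis genes below it. Replication genes are highest from 24 h to 42 h in 16 of 19 rows, whereas the highest points of mitosis genes are spread from 0 h to 72 h.

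The comparison of 6 h with 0 h asked how the members responded first after induction. On the deposited scale 11 of 22 mitosis genes rose and 5 fell, and 4 of 19 replication genes rose and 4 fell, beside 27.0% of all genes higher and 31.1% lower. The median change was 0.26 for mitosis genes, 0.08 for replication genes and -0.05 for all genes. Among the regulators of anaphase, Cdc20 stood at 7.55 (A) and 7.59 (B) log2 CPM at 0 h and at 8.17 and 8.30 at 6 h, a log2 change of 0.67 (SE 0.10, limma adjusted p = 4.36e-06). Its partner in ubiquitin transfer, Ube2c, moved from 7.53 and 7.60 to 7.84 and 8.07 (0.39, SE 0.14, limma adjusted p = 0.0195). Neither gene had duplicates that overlapped between the times, and the share of all genes without overlap is not given. Plk1, which acts at centrosomes and kinetochores, rose from 7.13 and 7.07 to 7.68 and 7.75 (0.61, SE 0.11, limma adjusted p = 2.49e-05). Ccna2, the cyclin that acts in S phase and early mitosis, rose from 8.13 and 8.11 to 8.68 and 8.58 (0.51, SE 0.08, limma adjusted p = 2.16e-06). Kif11, the motor that pushes spindle poles apart (0.44), Kif20a, a motor of cytokinesis (0.40), Cdk1 (0.37) and Tpx2, the activator of Aurka at the spindle (0.27), rose as well.

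Some closely related mitosis genes had changes of opposite sign at 6 h. Aurka, the kinase of the spindle poles, rose from 6.93 (A) and 6.83 (B) to 7.36 and 7.46 log2 CPM (log2 change 0.53, SE 0.12, limma adjusted p = 0.000686). Aurkb, the kinase of the chromosomal passenger complex, fell from 6.55 and 6.69 to 5.96 and 6.08 (-0.60, SE 0.12, limma adjusted p = 7.46e-05). Of the other members of that complex, Cdca8 rose by 0.39 and Birc5 changed by -0.03 (limma adjusted p = 0.906). The B-type cyclins moved in opposite directions too. Ccnb1 stood at 8.01 and 8.04 at 0 h and at 8.54 and 8.47 at 6 h (0.48, SE 0.12, limma adjusted p = 0.000825), while Ccnb2 stood at 7.80 and 7.87 and then at 7.60 in both replicates (-0.24, SE 0.10, limma adjusted p = 0.0344). Among the checkpoint kinases, Bub1 fell from 7.79 and 7.74 to 7.26 and 7.10 (-0.59, SE 0.12, limma adjusted p = 0.000235), and the change of Bub1b was -0.18 (limma adjusted p = 0.217). Top2a (-0.30) and Kif23, a motor of the central spindle (-0.24), also fell. The difference between the members of each pair was not tested.

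Among the replication genes, the calls at 6 h were 4 in each direction. Of the factors that license origins, Cdt1 fell from 7.87 (A) and 8.0 (B) to 7.36 and 7.48 log2 CPM (-0.52, SE 0.11, limma adjusted p = 0.000363) and Orc1 from 6.24 and 6.22 to 5.92 and 5.87 (-0.33, SE 0.08, limma adjusted p = 0.000572), while Cdc6 moved by 0.08 (limma adjusted p = 0.528). Both GINS genes fell, Gins2 by 0.57 and Gins1 by 0.39 on the log2 scale. Of the 6 helicase subunits 3 were called higher, Mcm5, which stood at 8.92 and 8.87 and then at 9.34 and 9.32 (0.43, SE 0.15, limma adjusted p = 0.0126), Mcm2 (0.26) and Mcm4 (0.24). Mcm3 (0.19), Mcm7 (0.12) and Mcm6 (-0.18, limma adjusted p = 0.0512) did not pass. Scaled by the counted reads alone, 0 helicase subunits were higher, Mcm6 was lower (-0.40), and Mcm3 (-0.03) and Mcm7 (-0.10) had values below 0. The difference between steps of replication was not tested. The clamp Pcna rose from 8.36 and 8.43 to 8.98 and 8.97 (0.58, SE 0.12, limma adjusted p = 0.000205).

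The falls at 6 h were called on both scales, and many of the rises on the deposited scale alone. Scaled by the counted reads alone, 4 mitosis genes were higher (Cdc20 0.45, Plk1 0.39, Aurka 0.31, Ccna2 0.29) and 7 lower. Of the replication genes 1 was higher (Pcna 0.36) and 8 lower, beside 2650 of all 14296 genes higher and 5754 lower on that scale. The other 10 members that rose kept a positive value there without passing the test, from 0.02 for Mcm4 to 0.26 for Ccnb1, and all 9 members that fell were lower on both scales. The median change of the replication genes was then -0.14 and that of the mitosis genes 0.04, beside -0.27 for all genes. The 5 neuroectoderm markers summed to 18.0 (A) and 14.7 (B) CPM at 0 h and to 64.5 and 58.9 CPM at 6 h, with 4 of 5 higher. Nes, the highest of them, went from 3.82 and 3.47 to 5.87 and 5.73 log2 CPM. Sox1 stood at 1.84 and 1.70 and then at 1.78 and 1.64. Of the endoderm markers 3 of 6 were called higher, and of streak and mesoderm 1 of 5. The part of these markers in the changes of the members was not tested. The share of all genes called with 1 library left out is not given here or below, so such counts do not set the members apart from other genes. Of the replication genes, 4 were called without replicate B of 0 h and 5 without replicate A of 6 h, in place of 8.

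**Figure D3:**
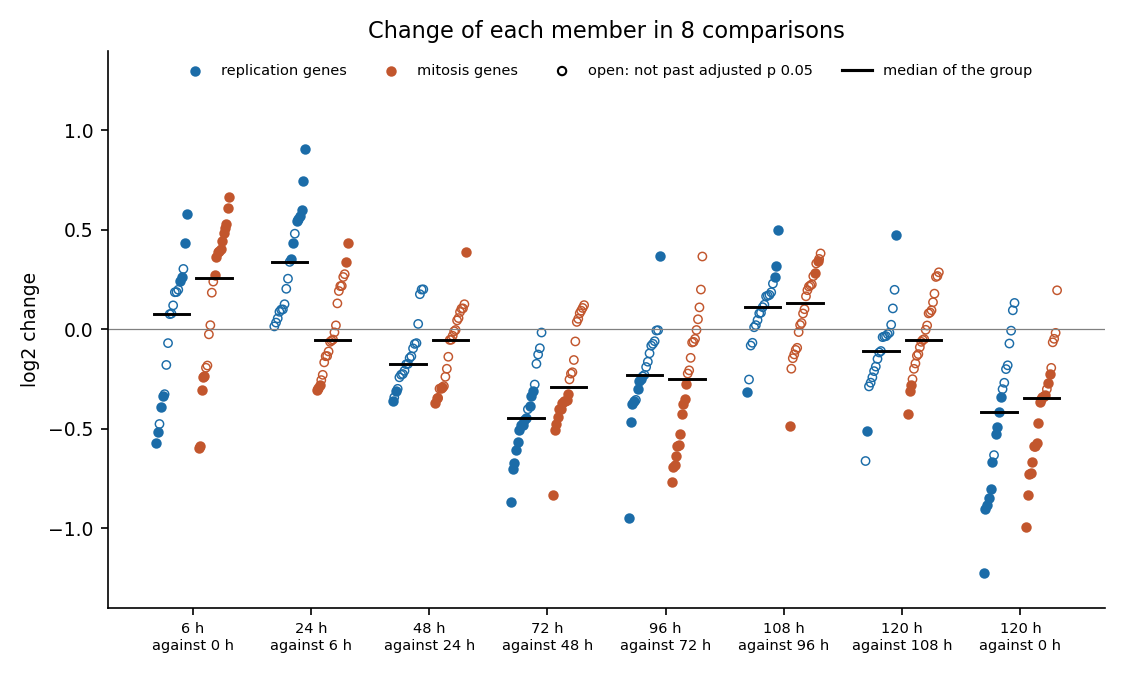
Log2 change of each member (points, y axis) in 8 comparisons of time points (x axis), with replication and mitosis genes side by side, filled points past adjusted p 0.05 in limma, open points not past it, and bars for the median of the group. Mitosis genes have the higher median at 6 h against 0 h (0.26 against 0.08) and replication genes at 24 h against 6 h (0.34 against -0.05), and the medians of both groups are below 0 at 72 h against 48 h.

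From 6 h to 24 h 8 of 19 replication genes rose and 0 fell, and 2 of 22 mitosis genes rose and 3 fell, beside 19.1% of all genes higher and 19.3% lower. At an unadjusted p under 0.05 in limma, 0 replication genes were lower there. The share of all genes at the unadjusted threshold is not given here or below, so these counts have no background beside them. The median change was 0.34 for replication genes and -0.05 for mitosis genes. On the scale of counted reads alone 10 replication genes rose, with a median of 0.40, beside 3165 of all 14296 genes higher and 2391 lower. Pola1, the catalytic subunit of the polymerase that primes DNA synthesis, rose from 6.59 (A) and 6.29 (B) to 7.39 and 7.30 log2 CPM (0.91, SE 0.16, limma adjusted p = 4.00e-05). Tyms, which makes thymidylate, rose from 6.13 and 6.31 to 7.0 and 6.93 (0.75, SE 0.17, limma adjusted p = 0.00072). Cdc6 rose from 6.30 and 6.22 to 6.83 and 6.89 (0.60, SE 0.10, limma adjusted p = 1.85e-05). Of the genes that had fallen at 6 h, Gins2 rose by 0.57 and Orc1 by 0.55. Rrm1, the large subunit of ribonucleotide reductase, rose by 0.55, Mcm10 by 0.43 and Mcm2 by 0.35. Cdt1 had a value of 0.20 (limma adjusted p = 0.171), and its level of 7.61 and 7.63 at 24 h was still below that of 0 h in both replicates.

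Of the mitosis genes, Bub1 (0.44, SE 0.12, limma adjusted p = 0.00656) and Top2a (0.34) rose from 6 h to 24 h, both of which had fallen in the first 6 h. Plk1 (-0.31), Cdca8 (-0.30) and Ccnb2 (-0.28) fell. Without replicate A of 24 h or without replicate B of 6 h, 0 of the 22 mitosis genes were called, and 3 were called without replicate B of 24 h or replicate A of 6 h. The 8 calls among the replication genes stood at 8 with each of the 4 libraries left out in turn. Of a list of 46 other replication genes, 25 rose and 0 fell, beside the same 19.1% and 19.3% of all genes, with a median of 0.37. The largest changes were those of Tk1, thymidine kinase (1.61), Pola2, the partner of Pola1 (0.92), and Chaf1b, which places histones on new DNA (0.87). Of 56 other mitosis genes 11 rose and 7 fell, and Fam83d, a spindle protein (-0.57), Cep55, a protein of the last step of cytokinesis (-0.52), and Gtse1, a microtubule protein (-0.51), had the largest changes.

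At 6 h against 0 h, 5 of 46 other replication genes were higher and 18 lower, beside 27.0% of all genes higher and 31.1% lower, with a median of -0.11. Tk1 stood at 6.25 (A) and 6.32 (B) log2 CPM at 0 h and at 4.49 and 4.66 at 6 h (-1.71, SE 0.11, limma adjusted p = 7.78e-13), and Chaf1b (-1.03) and Rfc2, another subunit of the clamp loader (-0.87), followed. Of the 56 other mitosis genes 22 rose and 11 fell against the same background, with Cdc25b, a phosphatase that activates Cdk1, at -1.25, Kpna2, a nuclear import receptor, at 1.12, and Cdca3, a trigger of mitotic entry, at -1.03.

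**Figure D4:**
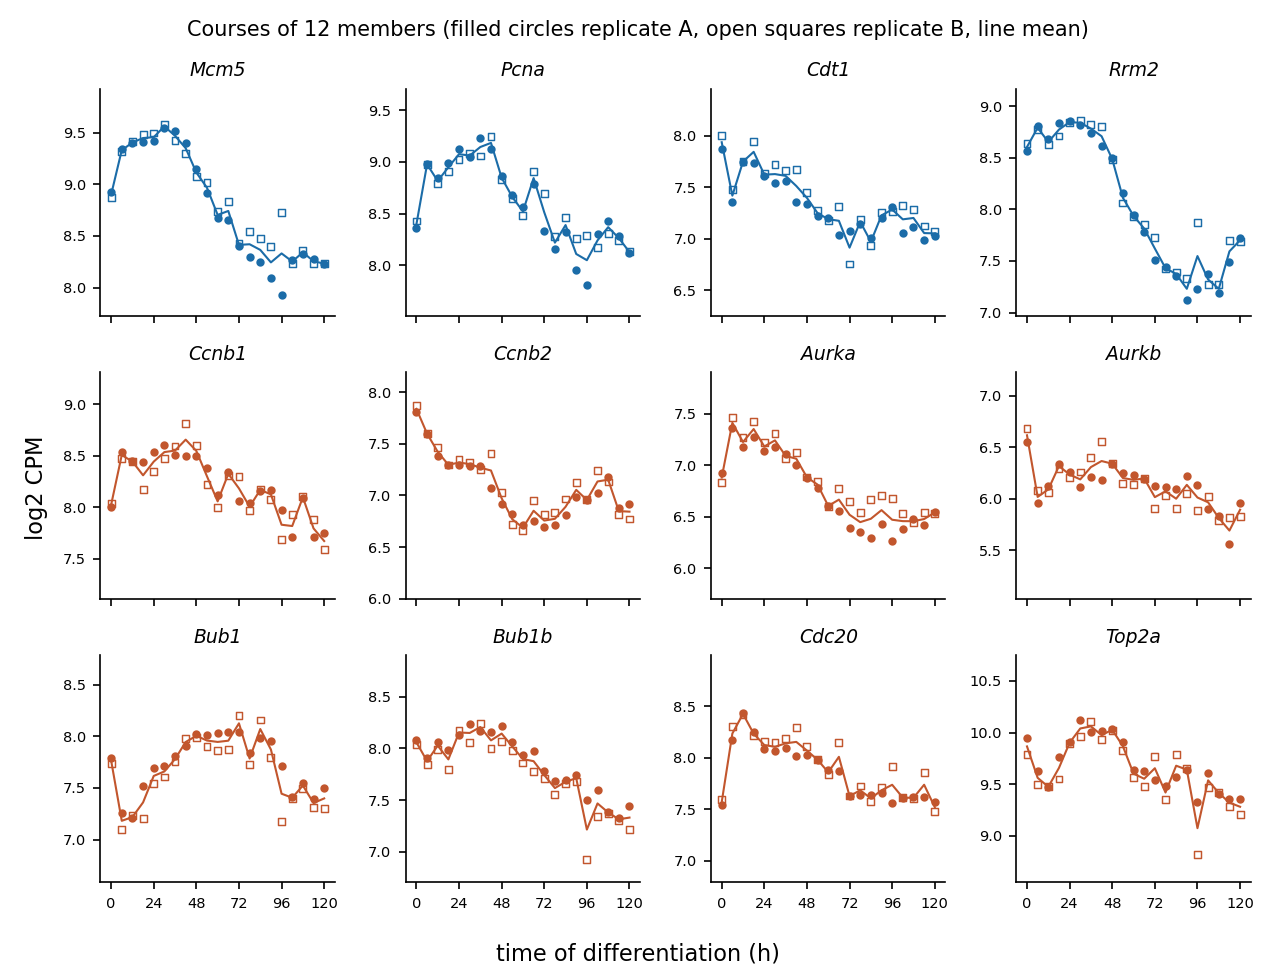
Log2 CPM (y axis) of 12 members against time (h, x axis), with filled circles for replicate A, open squares for replicate B and a line for the mean; each panel spans the same range of log2 CPM. Ccnb1 and Aurka are higher at 6 h than at 0 h and Ccnb2 and Aurkb lower, and Bub1 is highest at 72 h.

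From 24 h to 48 h few members changed. Of the replication genes 0 rose and 2 fell (Rrm2 by 0.36 and Mcm10 by 0.31 on the log2 scale), and of the mitosis genes 1 rose (Bub1, 0.39) and 4 fell (Ube2c, Ccnb2, Tpx2 and Kif23), beside 17.2% of all genes higher and 12.8% lower. At an unadjusted p under 0.05 in limma, 1 replication gene (Orc1, 0.20) was higher and 5 were lower, with no share of all genes at that threshold. The medians were -0.17 for replication and -0.05 for mitosis. With any of the 4 libraries left out, 0 replication genes were called, and the calls among the mitosis genes went from 5 to between 0 (without replicate B of 24 h) and 2 (without replicate A of 24 h), with 1 when either library of 48 h was left out. Bub1, the checkpoint kinase, rose from 7.26 (A) and 7.10 (B) log2 CPM at 6 h to 7.69 and 7.54 at 24 h and 8.02 and 7.99 at 48 h, and it reached 8.05 and 8.21 at 72 h, its highest level.

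From 48 h to 72 h 13 of 19 replication genes and 11 of 22 mitosis genes fell and 0 of either rose, beside 21.5% of all genes higher and 19.4% lower. No member was higher at an unadjusted p under 0.05 in limma either, a threshold without a share of all genes beside it. The median change was -0.45 for replication genes and -0.29 for mitosis genes, while that of all genes was 0.01. Rrm2, the regulated subunit of ribonucleotide reductase, fell from 8.49 (A) and 8.48 (B) log2 CPM to 7.51 and 7.73 (-0.87, SE 0.12, limma adjusted p = 4.12e-06). Every subunit of the helicase fell, with Mcm5 from 9.15 and 9.08 to 8.40 and 8.42 (-0.70, SE 0.15, limma adjusted p = 0.000377), Mcm2 by 0.67, Mcm7 by 0.51, Mcm6 by 0.48, Mcm3 by 0.46 and Mcm4 by 0.39. Cdc6 (-0.61), Gins2 (-0.57), Cdt1 (-0.48), Mcm10 (-0.45), Pcna (-0.34) and Rrm1 (-0.31) fell as well. Tyms (-0.40), Pola1 (-0.28), Rfc4 (-0.17), Orc1 (-0.13), Gins1 (-0.10) and Rfc3 (-0.02) did not pass the test.

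Among the mitosis genes, Ube2c fell from 7.27 (A) and 7.40 (B) to 6.55 and 6.45 log2 CPM between 48 h and 72 h (-0.83, SE 0.14, limma adjusted p = 4.07e-05). Plk1 (-0.51), Ccna2 (-0.47), Cdc20 (-0.44), Bub1b (-0.40), Kif20a (-0.40), Top2a (-0.37), Ccnb1 (-0.36), Aurka (-0.36), Cdk1 (-0.35) and Aurkb (-0.32) also fell. Kif23, Cenpe, Nusap1, Cenpf, Mki67 and Bub1 had values between 0.04 and 0.12 and did not pass. On the scale of counted reads alone, 11 replication genes and 5 mitosis genes (Ube2c, Plk1, Ccna2, Cdc20 and Kif20a) were lower and 0 of either were higher. Of all 14296 genes 4081 were higher there and 1668 lower. The medians were -0.30 and -0.14 beside 0.16 for all genes. The mitosis genes called were 6 without replicate A of 72 h or replicate B of 48 h, and 7 without replicate A of 48 h, in place of 11. The 5 neuroectoderm markers summed to 33.1 (A) and 31.4 (B) CPM at 48 h and to 90.7 and 84.4 CPM at 72 h. Of these 1 was called higher and 1 lower. Nes went from 4.30 (A) and 4.21 (B) to 6.39 and 6.28 log2 CPM, and Sox1 from 3.55 and 3.43 to 2.10 and 2.16. The 5 of streak and mesoderm summed to 17.5 and 17.2 and then to 60.6 and 68.9 CPM, with 2 called higher and 0 lower. The part of these markers in the falls of the members was not tested. Of the other replication genes 0 rose and 22 fell, beside the same 21.5% and 19.4% of all genes, led by Rpa2, which coats single strands (-0.85), Orc2 (-0.81) and Rfc5 (-0.80), and of the other mitosis genes 1 rose and 17 fell, led by Ccnf, cyclin F (-0.75), Gtse1 (-0.70) and Fzr1, another activator of the anaphase-promoting complex (-0.62).

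Between 72 h and 96 h, 1 replication gene rose and 7 fell, and 0 mitosis genes rose and 11 fell, beside 15.1% of all genes higher and 13.8% lower. At an unadjusted p under 0.05 in limma, 2 mitosis genes were higher (Ube2c 0.37 and Ccnb2 0.20), with no share of all genes at that threshold. Pola1 fell from 7.24 (A) and 7.30 (B) to 6.59 and 6.04 log2 CPM (-0.95, SE 0.16, limma adjusted p = 6.41e-05), and Pcna (-0.46), Mcm10 (-0.38), Orc1 (-0.36), Rrm1 (-0.30), Cdc6 (-0.26) and Mcm6 (-0.25) fell too. Cdt1 rose from 7.07 and 6.76 to 7.30 and 7.26 (0.37, SE 0.11, limma adjusted p = 0.0165). The mitosis genes that fell were Cenpf (-0.77), Cenpe, a kinetochore motor (-0.69), Bub1 (-0.68), Mki67, the Ki-67 protein of the chromosome surface (-0.64), Kif11 (-0.59), Top2a (-0.58), Bub1b (-0.53), Nusap1, which bundles microtubules (-0.43), Kif23 (-0.38), and the cyclins Ccnb1 (-0.35) and Ccna2 (-0.27). Cdc20, Plk1, Aurka, Aurkb, Birc5 and Cdk1 had values between -0.07 and 0.11 and did not pass, nor did Tpx2 (-0.22), Cdca8 (-0.21) and Kif20a (-0.14). On the scale of counted reads alone, Ube2c (0.41) and Ccnb2 (0.24) were higher and 10 mitosis genes lower, without Ccnb1. There 6 replication genes were lower, without Cdc6, beside 2433 of all 14296 genes higher and 1620 lower.

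The length of a gene moved with the change at 96 h. Over 14177 genes the Spearman correlation of the change from 72 h to 96 h with exon length was -0.249, and over the 41 members it was -0.664. The 20 longer members (over 4217 bases) had a median change of -0.34 and the 21 others -0.06. From 96 h to 108 h the sign turned, with 0.247 over all genes and 0.492 over the members. In addition, the duplicates at 96 h disagreed for many members, as for Mcm5 at 7.93 (A) and 8.73 (B), Tyms at 5.69 and 6.63, and Bub1b at 7.5 and 6.92 log2 CPM. The p-values at 96 h rest on the spread pooled over all time points. Called replication genes numbered 14 without replicate B of 96 h, 5 without replicate A of 96 h and 2 without replicate B of 72 h, in place of 8, and called mitosis genes 7 without replicate B of 96 h and 5 without replicate B of 72 h, in place of 11. After a trend with length was removed from each library, 7 replication and 11 mitosis genes were called. With 90 h in place of 96 h, 5 replication genes (all lower) and 2 mitosis genes were called, and with 102 h in place of 96 h, 4 (all lower) and 7. The share of all genes called is not given for these settings, so the counts do not set the members apart from other genes. The part of length, or of the cells in replicate B of 96 h, in these changes was not tested.

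**Figure D5:**
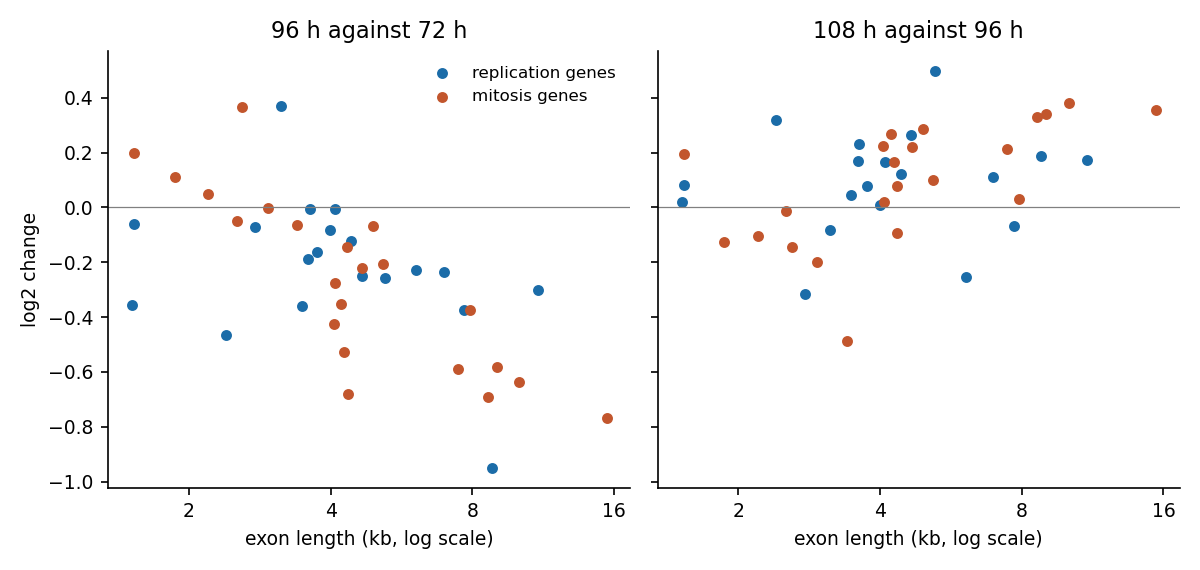
Log2 change of each member (y axis) against its exon length (kb, log scale, x axis) for 96 h against 72 h (left) and 108 h against 96 h (right), with replication and mitosis genes in different colours. Longer members have lower values at 96 h (Spearman -0.664 over 41 members) and higher values at 108 h (0.492).

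From 96 h to 108 h 3 replication genes rose and 1 fell, and 2 mitosis genes rose and 1 fell, beside 17.9% of all genes higher and 16.5% lower. Cdc6 rose from 5.69 (A) and 5.96 (B) to 6.22 and 6.42 log2 CPM (0.50, SE 0.10, limma adjusted p = 0.000277), and this was the member that also rose on the scale of counted reads alone (0.35). Pcna (0.32), Mcm6 (0.26), Top2a (0.34) and Cdk1 (0.28) rose on the deposited scale, and Rrm2 (-0.32) and Birc5 (-0.49) fell on both. On the scale of counted reads alone, 1 replication gene was higher and 2 lower, with Tyms (-0.40) added. There 0 mitosis genes were higher and 3 lower, with Cdc20 (-0.27) and Aurkb (-0.35) added. Of all 14296 genes 1546 were higher on that scale and 3522 lower. Without replicate A of 96 h the calls were 7 and 9 in replication and mitosis, and without replicate B of 96 h 0 mitosis genes were called. With either library of 108 h left out, 0 mitosis genes were called, and 2 (without A) or 1 (without B) replication genes. From 108 h to 120 h 1 replication gene rose (Rrm2, 0.47) and 1 fell (Gins2, -0.51), and 0 mitosis genes rose and 3 fell (Ccnb1, -0.42, Ccnb2, -0.31, and Cdk1, -0.28), beside 14.1% of all genes higher and 12.8% lower. At an unadjusted p under 0.05 in limma 1 mitosis gene was higher, with no share of all genes at that threshold. The calls for Rrm2 and Gins2 held on the scale of counted reads alone, and those for Ccnb1, Ccnb2 and Cdk1 were lost there. On that scale 3 mitosis genes, Birc5 (0.41), Kif20a (0.39) and Kif23 (0.26), and the replication gene Mcm10 (0.33) were called higher instead. There 0 mitosis genes were lower, beside 2988 of all 14296 genes higher and 1071 lower. The calls were 1 replication gene without replicate A of 108 h, 0 mitosis genes without replicate B of 120 h and 1 mitosis gene when either library of 108 h was left out. Of the 46 other replication genes 9 rose and 2 fell from 108 h to 120 h, beside the same 14.1% and 12.8% of all genes. Asf1b (1.24), Recql4 (0.73) and Cdc7 (0.59) had the largest changes. Of the 56 other mitosis genes 12 rose and 3 fell, led by Cep55 (0.91), Troap (0.70) and Kif20b (0.64).

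The ends of the course were compared directly. At 120 h, 0 replication genes were higher than at 0 h and 10 were lower, and 0 mitosis genes were higher and 16 lower, beside 26.6% of all genes higher and 25.6% lower. At an unadjusted p under 0.05 in limma the members that were higher were 0 as well, a threshold without a share of all genes beside it. The median change was -0.42 for replication genes and -0.34 for mitosis genes, and -0.02 for all genes. The Spearman correlation of this change with exon length was 0.185 over 14177 genes and 0.343 over the 41 members. The 20 longer members (over 4217 bases) had a median change of -0.30 and the 21 others -0.57, and the part of length was not tested. Markers of other cells were higher at 120 h. Those of neuroectoderm summed to 18.0 (A) and 14.7 (B) CPM at 0 h and to 204 and 189 CPM at 120 h, those of streak and mesoderm to 15.1 and 14.4 and then 75.2 and 63.6 CPM, those of endoderm to 7.20 and 8.05 and then 45.1 and 46.8 CPM, and those of fibroblasts to 24.5 and 28.1 and then 105 and 95.2 CPM. All 5 of neuroectoderm, all 5 of streak and mesoderm, 5 of 6 of endoderm and 6 of 7 of fibroblasts were called higher, and their part in the falls of the members was not tested. The 26 members that fell were lower on the scale of counted reads alone too, beside 3640 of all 14296 genes higher and 3820 lower there. Gins2 fell from 6.81 (A) and 6.93 (B) to 5.56 and 5.73 log2 CPM (-1.23, SE 0.12, limma adjusted p = 8.64e-10). Cdt1 fell from 7.87 and 8.0 to 7.03 and 7.07 (-0.88, SE 0.11, limma adjusted p = 2.61e-07), and Rrm2 from 8.57 and 8.64 to 7.72 and 7.68 (-0.90, SE 0.12, limma adjusted p = 6.47e-07). In each, both libraries of 120 h lay below both of 0 h, and the share of all genes without overlap is not given. Within the helicase the values ran from Mcm6 (-0.80, SE 0.08) and Mcm5 (-0.67, SE 0.15) through Mcm7 (-0.53), Mcm3 (-0.42) and Mcm4 (-0.34) to Mcm2, whose value of -0.18 (SE 0.09) did not pass (limma adjusted p = 0.112). Gins1 (-0.85) and Mcm10 (-0.49) fell as well. Cdc6, Orc1, Tyms and Rfc3 had values from -0.07 to 0.13 and did not pass.

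Of the mitosis genes, Ccnb2 fell from 7.80 (A) and 7.87 (B) at 0 h to 6.91 and 6.77 log2 CPM at 120 h (-1.0, SE 0.10, limma adjusted p = 1.40e-09), against a fall of 0.35 for Ccnb1. Kif23 (-0.83), Bub1b (-0.73), Aurkb (-0.72), Ube2c (-0.67), Top2a (-0.58), Nusap1 (-0.58), Birc5 (-0.57), Ccna2 (-0.47), Bub1 (-0.37), Aurka (-0.34), Tpx2 (-0.33), Kif11 (-0.33), Cdk1 (-0.27) and Cdca8 (-0.23) fell. Cdc20 ended at 7.57 and 7.48 after 7.55 and 7.59 at 0 h (-0.05, limma adjusted p = 0.722), and Kif20a (-0.07), Plk1 (-0.19), Mki67 (-0.30), Cenpe (-0.02) and Cenpf (0.20) did not pass either. Without replicate B of 120 h 9 mitosis genes were called, and without replicate A of 0 h 10, in place of 16, and the replication genes called stood at 10 with each of the 4 libraries left out. In the lists beside the members, 30 of 46 other replication genes and 30 of 56 other mitosis genes were lower at 120 h and 0 were higher, beside the same 26.6% of all genes higher and 25.6% lower. The largest falls were those of Pold2, a subunit of DNA polymerase delta (-1.08), Tk1 (-0.97) and Rnaseh2a, which removes RNA from DNA (-0.87), and of Cdc25b (-1.15), Cdca3 (-1.14) and Zwilch, a kinetochore protein (-1.12).

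Pairs of replication genes had higher correlations between their courses than pairs of mitosis genes. Over the 42 libraries the correlation between the values of 2 genes had a median of 0.746 for the 171 pairs of replication genes and 0.538 for the 231 pairs of mitosis genes, and 0.620 for the 418 pairs across the groups. These are descriptions, since all pairs share the same libraries and the libraries share the course of time. The duplicates followed each other with a median r of 0.935 over time for replication genes and 0.880 for mitosis genes. The members with the lowest agreement were Rfc4 (0.304) and Mki67 (0.341), whose courses are therefore known with less precision.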

How the data were processed

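RNA of W9.5 ES cells was sequenced as stranded poly-A libraries at 21 time points in replicates A and B. Per the labels and the methods of the study, the authors ran Trim Galore, TopHat2 on mm10 (GRCm38) and HTSeq on the genes of GENCODE vM2, kept expressed genes, normalized library sizes with edgeR and applied voom. Tool versions are not given in the sources used here. The values deposited by the authors are log2 CPM, 1 file per library, with an offset of 0.5 reads. Whole reads and library sizes were recovered from them, with reads to within 2.91e-08 of a whole number. With these reads and sizes voom returned the deposited log2 values, which is no separate check, since both were derived from those values.

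The identifiers of 14177 of 14296 genes were found in GENCODE vM21, also on GRCm38. limma 3.58.1 in R 4.3.3 was fitted on all 14296 genes and 42 libraries with a factor of 21 time points (eBayes with trend, 21 residual degrees of freedom). The Benjamini-Hochberg adjustment was applied in each of 8 contrasts, and adjusted p under 0.05 was called. Tables were made with Python 3.11.15. The fit was tested on simulated data. Each time point had 2 libraries, of 10120972 to 51652434 counted reads each.

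The members and gene lists were chosen with earlier results of these data known. All 41 members are named. Of each other cell cycle list, the 3 genes with the largest called change are named where the list is counted. Promoter windows came from RefSeq (GRCm38.p6). Alternatives covered the replicate block, threshold, weights, scaling, filter, offset and single libraries. The trend with length, the scaling by counted reads and the neighbours of 96 h were chosen after seeing the data.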

Additional observations from a re-analysis of the deposited data

How the results depend on the processing

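Residuals of libraries of the same replicate letter correlated with a mean of 0.0795, and 47.1% of 210 such pairs exceeded 0.1. The sources do not say what libraries of 1 letter share, so the letters were not treated as pairs. The counts of calls in this paragraph have no share of all genes beside them, so they do not set the members apart from other genes. With a replicate block, 4 replication and 8 mitosis genes were called at 48 h against 24 h, in place of 2 and 5, and no other count of calls moved by more than 1.5 times. Of 224 values recomputed under other settings than the loss of 1 library, 183 stayed within 1.5 times of the count of calls, whatever the direction of the calls, or within the spread between duplicates of a median change. At adjusted p under 0.0001, replication and mitosis calls were 0 and 4 at 6 h against 0 h, 4 and 0 at 24 h against 6 h, 0 and 0 at 48 h against 24 h, 5 and 2 at 72 h against 48 h, 1 and 0 at 96 h against 72 h, 0 and 0 at 108 h against 96 h, 0 and 0 at 120 h against 108 h and 6 and 5 at 120 h against 0 h, the threshold being stricter by construction. With p-values adjusted over all 8 contrasts, 4 replication genes were called at 48 h against 24 h. Without the trend in eBayes, 3 mitosis genes were called at 48 h against 24 h and 2 replication genes at 108 h against 96 h. With the trend with length removed, 8 mitosis genes were called at 48 h against 24 h and 5 replication genes at 120 h against 108 h. With 90 h in place of 96 h, 5 replication and 2 mitosis genes were called against 72 h, and with 102 h, 4 and 7 against 72 h, and 1 and 0 for 108 h.

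Scaled by counted reads alone, the totals of calls at 6 h against 0 h stayed near those above while their directions shifted, from 4 higher and 4 lower to 1 and 8 for replication and from 11 and 5 to 4 and 7 for mitosis. At 120 h against 108 h the mitosis calls turned from 0 higher and 3 lower to 3 and 0. On this scale 5 replication and 9 mitosis genes were called at 48 h against 24 h and 5 mitosis genes at 72 h against 48 h. Of all 14296 genes, 2650 were higher and 5754 lower at 6 h against 0 h. The counts were 2156 and 2032 at 48 h against 24 h, 4081 and 1668 at 72 h against 48 h, and 2988 and 1071 at 120 h against 108 h. The median changes of replication and mitosis genes were then -0.14 and 0.037 at 6 h against 0 h, -0.30 and -0.14 at 72 h against 48 h, -0.036 and -0.013 at 108 h against 96 h, and 0.019 and 0.077 at 120 h against 108 h, and that of mitosis genes 0.0019 at 24 h against 6 h. Of these the value of replication at 6 h, both at 108 h, both at 120 h against 108 h and that of mitosis at 24 h were reversed in sign. The cause of these differences other than the scaling itself was not tested.

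With each library left out in turn, the lone duplicate was taken to vary like the other time points. The loss of a library bears on the calls of every gene. No share of all genes is given beside the counts below, so they do not set the members apart from other genes. Replication calls ranged from 4 to 8 at 6 h against 0 h, were 0 at 48 h against 24 h, and ranged from 2 to 14 at 96 h against 72 h, from 1 to 7 at 108 h against 96 h and from 1 to 2 at 120 h against 108 h. Mitosis calls ranged from 0 to 3 at 24 h against 6 h, from 0 to 2 at 48 h against 24 h, from 6 to 10 at 72 h against 48 h, from 5 to 13 at 96 h against 72 h, from 0 to 9 at 108 h against 96 h, from 0 to 2 at 120 h against 108 h and from 9 to 12 at 120 h against 0 h. Median changes of replication genes ranged from -0.51 to -0.36 at 72 h against 48 h, from -0.39 to -0.11 at 96 h against 72 h and from 0.016 to 0.21 at 108 h against 96 h. Those of mitosis genes ranged from 0.13 to 0.34 at 6 h against 0 h, from -0.079 to 0.0036 at 24 h against 6 h (reversed without replicate B of 24 h), from -0.36 to -0.22 at 72 h against 48 h, from -0.35 to -0.15 at 96 h against 72 h and from -0.43 to -0.32 at 120 h against 0 h. The members had at least 379 reads in every library, and counting error was not set against the spread between duplicates.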

Other observations

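The regulators of cell cycle transcription, a list of 22 genes all present, were counted beside the members. At 6 h against 0 h 11 rose and 6 fell, beside 27.0% of all genes higher and 31.1% lower, with Nfyc, a subunit of the factor that binds CCAAT, at 1.43, Lin9, a subunit of the complex that binds CHR elements, at 1.11, and E2f6, a repressor of the E2F family, at 1.02 on the log2 scale. At 24 h against 6 h 4 rose and 5 fell, beside 19.1% and 19.3% of all genes. Lin37, another subunit of the complex that binds CHR elements, went from 4.41 (A) and 4.45 (B) to 3.27 and 3.45 log2 CPM (-1.07, SE 0.15, limma adjusted p = 3.34e-06). Foxm1, an activator of mitosis genes, stood at 7.03 (A) and 6.98 (B) log2 CPM at 6 h and at 6.45 and 6.51 at 24 h (-0.53, SE 0.14, limma adjusted p = 0.00374), and E2f8, a repressor of the E2F family, rose by 0.62. At 48 h against 24 h 2 rose and 5 fell, beside 17.2% and 12.8% of all genes, led by E2f2 (-1.55), Mybl2, an activator with the CHR-binding complex (-1.03), and E2f4 (-0.43).

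At 72 h against 48 h 1 regulator rose and 11 fell, beside 21.5% and 19.4% of all genes, led by E2f4 (-1.04), Mybl2 (-0.95) and E2f8 (-0.79). At 120 h against 0 h 5 rose and 10 fell, beside 26.6% and 25.6% of all genes. E2f2, an activator of replication genes, went from 5.05 (A) and 5.08 (B) log2 CPM at 0 h to 2.98 and 3.15 at 120 h (-2.00, SE 0.15, limma adjusted p = 1.40e-11), and Rbl2, the pocket protein p130 (-1.20), and E2f1 (-1.18) fell too. At 120 h against 108 h 5 rose and 4 fell, beside 14.1% and 12.8% of all genes, and E2f2 (1.31) and Rbl2 (1.08) had the largest changes. Mybl2 stood at 7.60 and 7.79 at 108 h and at 8.60 and 8.62 at 120 h (0.91, SE 0.13, limma adjusted p = 8.73e-06).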
